A study of Homo sapiens with 6 samples.

Results

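The nucleoporin genes are the 31 genes of a fixed list that encode the proteins of the nuclear pore. They were examined in RNA immunoprecipitation sequencing (RIP-seq), taken here to be of SmD2. SmD2 is a protein of the Sm ring found in the small nuclear ribonucleoproteins of the spliceosome. The list was chosen by results of these same data, because NUP133 ranked among the genes with the highest deposited peak folds, so the peak counts, reads and folds given here are a description with no test. For each gene the whole RefSeq span on build GRCh38 was taken, and every peak of at most 1000 bp whose summit, its highest point, fell in a span was kept. This gave 148, 355 and 147 narrow peaks in replicates 1, 2 and 3, or 650 of the 206853 narrow peaks of the 3 lists. The 31 genes are among 20033 protein-coding genes of the RefSeq table.

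The samples came from HEK293T, an established human embryonic kidney line. The 3 samples with genotype SNRPD2OE overexpress SNRPD2, the gene of SmD2, and each has its own peak list. The 3 samples with genotype Ctrl were not analysed here, so no comparison of genotypes was made. The labels number the replicates without saying whether they came from separate cultures, and their extraction text describes rRNA-depleted total RNA but not the immunoprecipitation.

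The nuclear pore complex is the channel through which proteins and RNA pass between nucleus and cytoplasm. Ring scaffolds on both faces and in the middle anchor it in the nuclear envelope, and nucleoporins rich in phenylalanine and glycine repeats fill the channel and bind transport receptors. Filaments on the cytoplasmic side help release exported mRNA, and the nuclear basket receives cargo on the inner side. In dividing cells nucleoporin genes are widely expressed. RNA abundance was not measured in the files used here, and a highly expressed gene can give more reads and more peaks.

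The 3 lists differed in size and in what they admit. They held 30111, 160931 and 65097 peaks, of which 2, 0 and 49284 were wider than 1000 bp. In nucleoporin genes the widest narrow peak of replicate 3 had 517 bp and the narrowest one left out had 1122 bp, and 50 wide peaks of that replicate fell in 16 of the genes. The number of RIP reads at each summit was recovered from the deposited fold and p-value, as was the background the caller set against it, in reads of a background library that the sources used here do not name. Both are given unscaled. To the caller, 1 background read weighed as much as 1.67, 0.903 and 3.94 RIP reads in replicates 1, 2 and 3. RIP reads given over background reads are therefore not ratios. Of the narrow peaks of replicate 2, 71.4% rested on 1 read, against 0% in replicate 1 and 5.47% in replicate 3. The highest read number was 78, 80 and 78, in lists whose smallest peak width was 39, 40 and 39 bp. Read numbers were searched up to 80. The narrow peaks at SNRPD2 itself reached the highest number in each list. How duplicates were handled is not given, and whether these numbers are a ceiling on reads was not tested. Of 6 genes known to be on in HEK293 cells, 4, 5 and 1 held a narrow peak in replicates 1, 2 and 3. LHX1 held none, and VIM, a filament gene, held one in all 3. Apart from VIM, the strongest peaks of these HEK293 genes had at most 4 reads. Of 4 genes of blood and liver cells, 0, 2 and 0 held a narrow peak. Among all protein-coding genes the shares were 45.3%, 76.8% and 30.3%. With so few genes these counts do not check the identity of the cells.

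In RAE1 and RANBP2, peaks of 2 replicates met inside the RefSeq windows that run from 250 bases before to 50 bases after a gene start (build GRCh38.p14). Their sequences are shown because no other member had peaks of 2 replicates in such a window. In RAE1, an mRNA export factor, the stretch lies between the summits of replicates 1 and 3 (chr20:57351322-57351349, plus strand, 67 to 94 bases from the first base of the span). In RANBP2, the large Ran-binding filament protein, the stretch is covered by peaks of replicates 2 and 3 (chr2:108719513-108719531, plus strand, 31 to 49 bases from the first base of the span). Within their windows the places differ, as the RAE1 stretch lies before the gene start of its window and the RANBP2 stretch after it. Both stretches are written 5′ to 3′ as DNA, in lower case, with no base marked.
RAE1: tccgcgctcctggccctcgtccttcgcg
RANBP2: tcactggtttgcaggcgct
In RAE1 the 2 peaks had 23 and 13 RIP reads, with backgrounds of 5 and 0.234. In RANBP2 they had 19 and 9, with backgrounds of 10 and 0.078. Of the 28 bases of RAE1, 21 were G or C, and of the 19 bases of RANBP2, 11 were. The motifs TNTAA and TNTAG, letters known from sites of the pseudouridine synthase PUS7, were searched on both strands, and neither stretch holds one. At the same place in all 35116 promoter windows of the table, 21.2% of stretches of the RAE1 length and 9.47% of the RANBP2 length hold one. Promoter windows were found for 28 of the 31 genes. Of these, 11 (39.3%) had a narrow peak of any replicate that overlapped a window, against 23.9% of the 15842 protein-coding genes with a window. An overlap of 1 bp was enough here, wherever the summit lay. In NUP107, NUP205, NUP93 and NUP88 it was 1, 3, 3 and 14 bp, with the summit outside the window. The summit of the replicate 2 peak of RANBP2 also lay outside.

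Nearly every nucleoporin gene carried a narrow peak in each replicate. In replicate 1, 30 of 31 genes (96.8%) held one, against 45.3% of protein-coding genes. In replicate 2 all 31 genes held one, against 76.8%. In replicate 3 all 31 genes held one, against 30.3%. The mean share over replicates was 98.9% ± 1.86 (SD, n = 3) for nucleoporin genes and 50.8% ± 23.7 (SD, n = 3) for protein-coding genes. A peak in all 3 lists was found in 30 of 31 genes, against 23.9% of protein-coding genes. The exception was NUP42, a cytoplasmic FG nucleoporin that works with GLE1 in mRNA export. It held 0, 2 and 3 narrow peaks, and both peaks of replicate 2 rested on 1 read.

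Long genes catch more summits, so the count was also read within classes of span. Of the 7 nucleoporin genes under 30 kb, 6 held a peak in all 3 lists, against 15.7% of protein-coding genes of that class. All 19 genes of 30 to 100 kb did, against 35.8%, and all 5 genes over 100 kb did, against 31.6%. Within each class the nucleoporin share was thus above the background share.

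**Figure D1:**
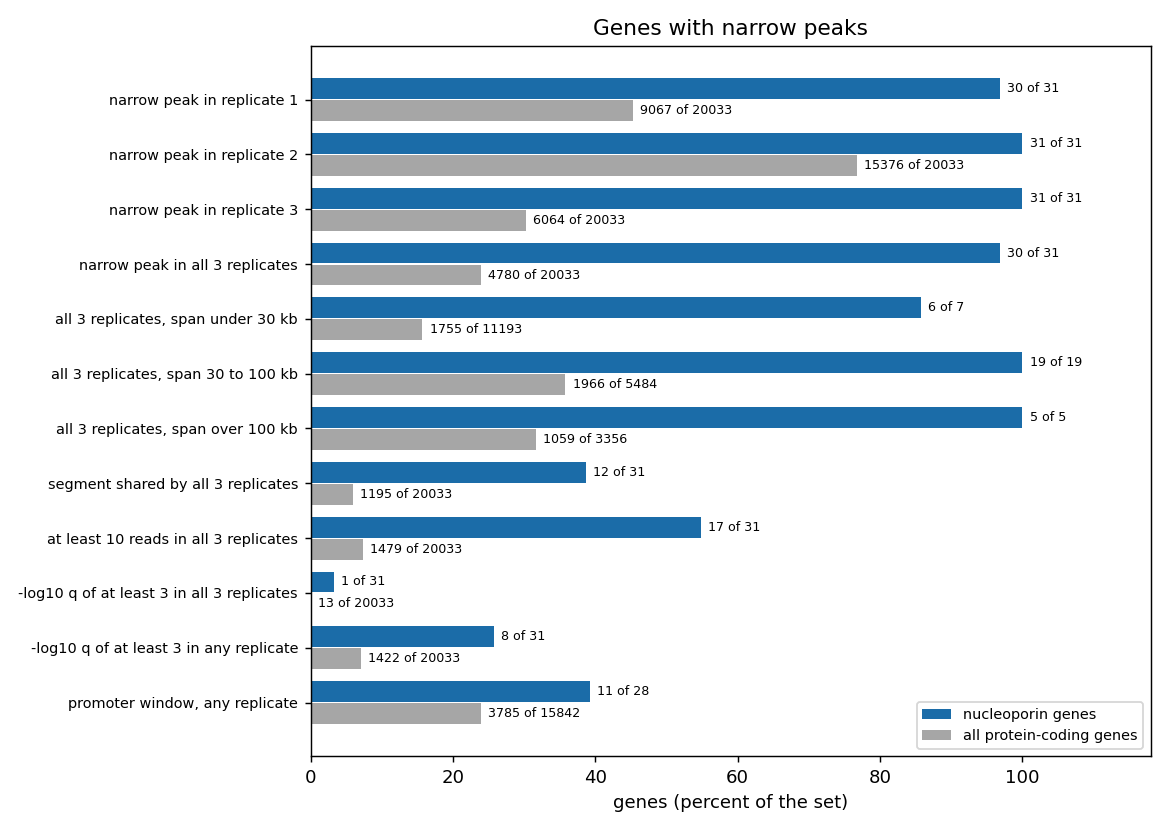
Percent of genes with narrow peaks (horizontal axis) among the 31 nucleoporin genes (blue bars) and all protein-coding genes (grey bars), for each replicate, for all 3 replicates, by class of span, for segments shared by 3 lists, for peaks of at least 10 reads, for peaks with a −log10 q of at least 3 and for promoter windows (genes with a window only). The blue bars are longer in every row, with 30 of 31 genes against 4780 of 20033 for a peak in all 3 lists. The bar for a −log10 q of at least 3 in all 3 replicates is NUP133 alone, by which the list was chosen. NUP133 is also in the bar for any replicate. Promoter windows were counted by overlap with a peak and not by its summit.

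The peaks in nucleoporin genes rested on more reads than most. The median was 12, 4 and 10 reads at the summit in replicates 1, 2 and 3, against 5, 1 and 7 in protein-coding genes. Peaks of at least 10 reads made up 63.5%, 32.1% and 51.7% of the nucleoporin peaks, against 22.4%, 6.85% and 32.5%. RANBP2, with most of its summits in other genes too, lowered the values of replicate 2, where the median was 7 reads and 41.8% of peaks had at least 10 without it. A narrow peak of at least 10 reads in all 3 lists was found in 17 of 31 genes, against 7.38% of protein-coding genes. These were NUP133, NUP107, NUP160, NUP85, NUP43, NUP37, SEC13, NUP93, NUP155, NUP188, NUP205, NUP98, NUP88, RANBP2, GLE1, RAE1 and NUP50.

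The background at these peaks was higher as well. At least 1 whole background read lay at the summit of 66.2%, 46.5% and 13.6% of the nucleoporin peaks, against 26.9%, 14.7% and 8.81% in protein-coding genes. The median deposited fold was 2.9, 1.94 and 2.91, against 2.74, 1.94 and 2.58, so the folds lay near those of other genes while the reads did not. Whether the peak counts follow the amount of nucleoporin RNA was not tested. Few peaks stood out after the caller's own adjustment. The deposited −log10 q was 0 at 76.4%, 72.4% and 80.3% of the nucleoporin peaks, against 81%, 80.7% and 84.3%. A −log10 q of at least 3 was reached by 1.35%, 2.25% and 0.68% of the nucleoporin peaks, 11 in all, against 1.22%, 1.04% and 1.28% of the peaks in protein-coding genes, so the shares lay near or below the background in replicates 1 and 3. The 11 peaks lay in 8 of 31 genes, against 7.1% of protein-coding genes. These shares and counts include NUP133, by which the list was chosen. It gave 3 of the 11 peaks, 1 in each list, and the only one of replicate 3. In all 3 lists this limit was reached by 1 gene, NUP133, against 0.0649% of protein-coding genes. The list was chosen by the fold of NUP133 in these data, so this count says nothing of the other members, and none of them reached it.

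**Figure D2:**
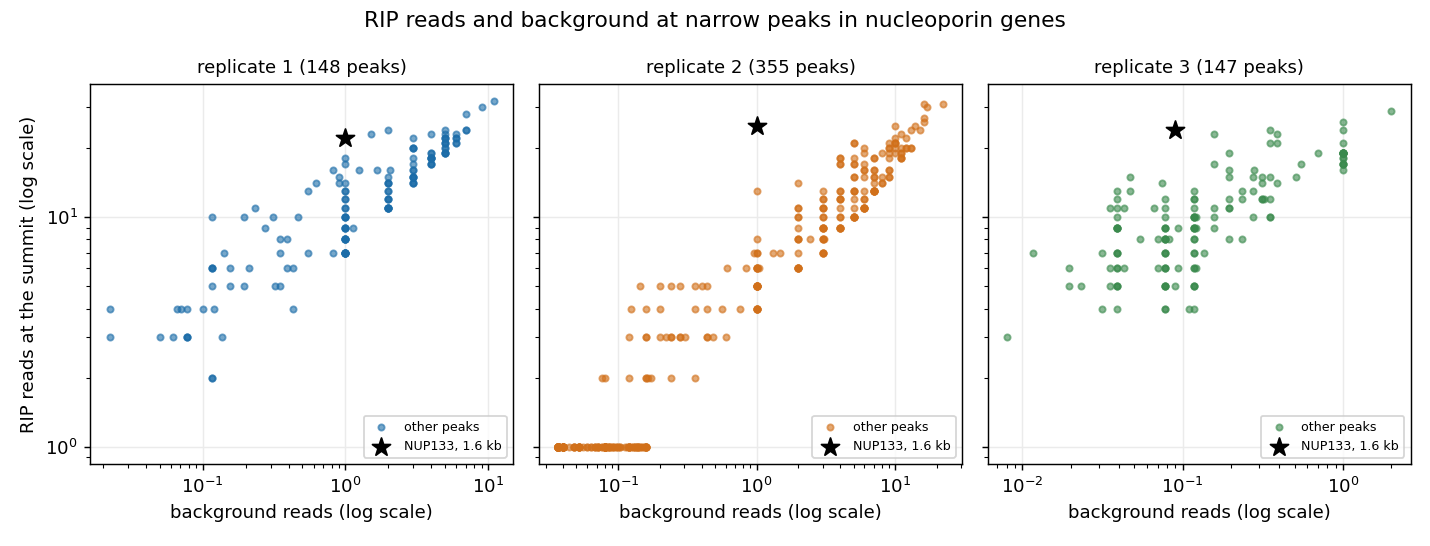
RIP reads at the summit (vertical axis, log scale) against background reads (horizontal axis, log scale) for every narrow peak in nucleoporin genes, 1 panel for each replicate. The star marks the NUP133 peak 1.6 kb from the 5′ end, with 22, 25 and 24 RIP reads over 1, 1 and 0.0897 background reads. No other peak of a panel had a higher fold. Near the star lay NUP88 in replicate 1, with 23 reads over 1.521, and NUP107 in replicate 3, with 23 over 0.156. Both axes are unscaled, and 1 background read weighed as much as 1.67, 0.903 and 3.94 RIP reads in replicates 1, 2 and 3.

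NUP133 encodes a scaffold protein of the outer ring that links neighbouring ring subunits. Its span covers chr1:229440259-229508341 on the minus strand, 68.1 kb, with no other gene of the table in it. It held 9, 12 and 9 narrow peaks, of which 9, 10 and 9 had at least 10 reads, and no wide peak. The strongest peak was at the same place in all 3 lists. Its summit lay at 229506698, 229506698 and 229506689, that is within 9 bp, and 1.643, 1.643 and 1.652 kb from the 5′ end. The peaks were 88, 262 and 168 bp wide, and all 3 covered chr1:229506639-229506724, a segment of 86 bp at 2.44% of the span. Exons and introns were not used here.

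At this site 22, 25 and 24 RIP reads stood over a background of 1, 1 and 0.0897 reads. The first 2 backgrounds are a single read at the summit, and that of replicate 3 is an average over a wider window. The deposited fold was 7.09, 13.7 and 6.5, and the −log10 q was 5.24, 20.4 and 5.46. The fold adds 1 to the scaled reads and to the background. Without that addition, the scaled RIP reads were 13.2, 27.7 and 67.9 times the background, values that rest on 1 background read or less. No other nucleoporin peak had a higher fold in any list, and the next were NUP98 at 6.26 in replicate 1, NUP107 at 7.36 in replicate 2 and NUP107 at 5.91 in replicate 3. Among all narrow peaks, 122 of 30109, 2 of 160931 and 167 of 15813 had a higher fold.

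The other NUP133 peaks had similar reads, mostly over a higher background. In replicate 1 the other 8 peaks had 14 to 23 reads over 1.677 to 6 background reads, with folds of 2.03 to 3.96. In replicate 2 the other 11 had 7 to 31 reads over 1 to 22 background reads, with folds of 1.53 to 4.2. In replicate 3 the other 8 had 11 to 26 reads over 0.156 to 1 background reads, with folds of 2.66 to 4.92. At the 1.6 kb site the reads were within the range of the other NUP133 peaks in each list, and the background was at or below their lowest.

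A second NUP133 segment was covered by all 3 lists, near the gene start. It spans chr1:229508116-229508182, 67 bp, 0.192 kb from the 5′ end, and the 3 summits lay within 2 bp. Here 23, 25 and 23 reads stood over 6, 10 and 0.39 background reads, with folds of 2.11, 2.59 and 4.92. The remaining NUP133 peaks were shared by fewer lists. Replicates 1 and 2 also met at 6.261, 24.23 and 41.66 kb from the 5′ end. There they had 14, 22 and 19 reads in replicate 1 and 20, 19 and 24 in replicate 2, with folds of at most 2.43. Replicates 2 and 3 met at 42.88 kb, with 27 and 16 reads over 16 and 0.195 background reads. Replicates 1 and 3 met at no further place.

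**Figure D3:**
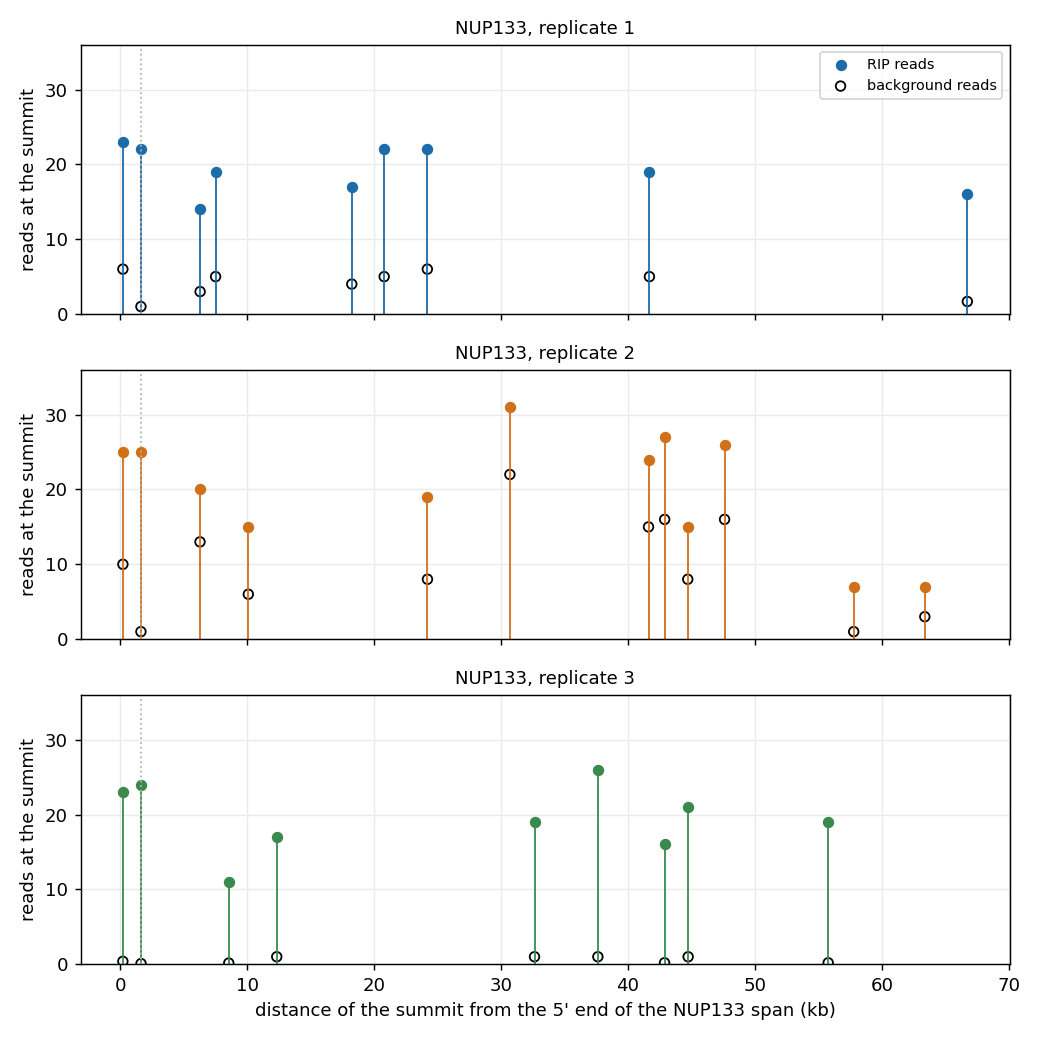
RIP reads (filled points on stems) and background reads (open circles) at each NUP133 summit (vertical axis), by distance from the 5′ end of the gene in kb (horizontal axis), 1 panel for each replicate. The dotted line marks the site 1.6 kb from the 5′ end, where 22, 25 and 24 RIP reads stand over at most 1 background read. Both numbers are unscaled, and 1 background read weighed as much as 1.67, 0.903 and 3.94 RIP reads in replicates 1, 2 and 3.

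Genes with a pattern like that of NUP133 were ranked over the 3 replicates by the percentiles of their highest fold within each list, among 4779 other protein-coding genes with a peak in all 3. The nearest were NTMT1, a methyltransferase of protein ends, GET3, a targeting factor for tail-anchored proteins, USP9X, a deubiquitinase, SNRNP70, a protein of a spliceosomal ribonucleoprotein, and WDR74, a ribosome assembly factor. Their distances were 0.192, 0.294, 0.294, 0.707 and 0.734 percentile points. Near percentiles did not mean near folds. In replicate 2 their folds were 8.93, 6.51, 6.31, 6.42 and 8.55, against 13.7 for NUP133. In replicates 1 and 3 they were 7.09 to 8.08 and 6.55 to 9.51, against 7.09 and 6.5 for NUP133. The likeness is a rank of folds in the lists that were used to choose NUP133.

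The outer ring, or Y complex, forms the scaffold on both faces of the pore, and its 9 genes held 45, 80 and 36 narrow peaks. That is 9.95, 17.7 and 7.96 peaks per 100 kb of span, against 2.12, 8.99 and 1.14 in protein-coding genes. All 9 had a peak in each list, against 23.9% of protein-coding genes. A peak of at least 10 reads in each list was found in 7, against 7.38%. A segment covered by all 3 lists was found in 6, against 5.97%. NUP133, by which the list was chosen, is in each of these counts and held 9, 12 and 9 of the peaks. NUP107, the scaffold partner of NUP133, held 7, 6 and 6 peaks. Its shared segment of 40 bp (chr12:68731653-68731692, 44.69 kb from the 5′ end) had 8, 13 and 10 reads over 1, 1 and 0.117 background reads, with folds of 2.9, 7.36 and 3.17. The 3 summits lay within 4 bp, and only in replicate 2 was the −log10 q above 0, at 6.09. The strongest NUP107 peaks of replicates 1 and 3 lay elsewhere, at 46.59 and 5.03 kb.

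NUP43, a small propeller protein of the outer ring, held 7, 8 and 2 peaks and 2 shared segments. At chr6:149746396-149746429 it had 24, 21 and 17 reads over 2, 10 and 0.546 background reads, with folds of 5.13, 2.19 and 3.44. At chr6:149736465-149736514 it had 23, 14 and 17 reads over 4, 8 and 1. The table gives no strand for NUP43, so its positions along the gene were not computed. SEC13, shared between the pore and the COPII vesicle coat, held 4, 6 and 3 peaks. Its segment at chr3:10311959-10312044 had 21, 20 and 17 reads over 5, 12 and 1 background reads. In both genes the 3 lists had similar reads, over a background that was highest in replicate 2.

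NUP85, which anchors the short arm of the Y, held 2, 6 and 3 peaks, with a segment at chr17:75218243-75218276 of 10, 12 and 11 reads over 0.468, 5 and 0.117. NUP37, another propeller protein, held 1, 5 and 2 peaks, with a segment at chr12:102074407-102074457 near the 3′ end (97.2% of the span) of 14, 10 and 11 reads over 2, 5 and 0.0429. NUP160, a long Y-arm scaffold, held 5, 15 and 2 peaks and no segment covered by all 3. SEH1L, also part of nutrient-signalling complexes, held 4, 7 and 6 peaks, with at most 13, 5 and 9 reads. AHCTF1 (ELYS), which seeds pore assembly on chromatin, held 6, 15 and 3 peaks, with at most 9, 11 and 10 reads. In replicates 2 and 3 the highest read numbers of SEH1L and AHCTF1 were below those of the other 7 outer ring genes.

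The inner ring holds the middle of the pore in the envelope, and its 5 genes held 44, 46 and 36 narrow peaks, or 11.1, 11.6 and 9.06 per 100 kb. The share with at least 10 reads was high, with 40, 32 and 25 of these peaks. NUP205 and NUP188, the large paired scaffold proteins, held 13, 20 and 11 and 13, 8 and 12 peaks. NUP93, which links the ring to the channel, held 12, 7 and 7, NUP155, which contacts the membrane, 4, 4 and 2, and NUP35 2, 7 and 4. NUP35 had at most 4, 9 and 9 reads, and the other 4 genes each had a peak of at least 21 reads in each list.

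NUP205 alone among the inner ring genes had segments covered by all 3 lists. At chr7:135593027-135593062 (35.13 kb from the 5′ end) it had 22, 21 and 15 reads over 5, 9 and 0.273 background reads. At chr7:135617174-135617259 (59.3 kb) it had 16, 13 and 14 reads over 3, 6 and 0.312. The summits of each segment lay up to 79 and 76 bp apart, farther than at the NUP133 sites. In NUP188 some summits also lay in an overlapping gene, and 9, 6 and 7 of its peaks lay in no other gene.

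The central channel genes encode FG nucleoporins that fill the pore, and the 4 genes held 14, 26 and 22 peaks, or 6.16, 11.4 and 9.69 per 100 kb. NUP98, which also binds export factors, held 7, 16 and 15, and its segment at chr11:3693284-3693323 (104.3 kb from the 5′ end) had 10, 11 and 6 reads over 0.117, 5 and 0.039 background reads. Its fold there was 6.26, 2.18 and 2.43. NUP58 held 4, 1 and 5 peaks, and its segment at chr13:25312865-25312932 had 10, 7 and 6 reads over 1, 2 and 0.117. NUP54 held 2, 3 and 1 peaks and NUP62 1, 6 and 1. The NUP62 span lies wholly within another gene of the table, so none of its summits can be given to NUP62 alone.

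The cytoplasmic side carries the mRNA release machinery, and its 7 genes held 31, 133 and 31 peaks. RANBP2, the large filament protein, held 10, 87 and 10 of them, and 62 of its 87 in replicate 2 rested on 1 read. The table gives RANBP2 a span of 1123 kb that runs over 18 other genes, and 7, 71 and 7 of its summits lay in another gene too. Without RANBP2 the other 6 genes held 21, 46 and 21 peaks, or 8.66, 19 and 8.66 per 100 kb, where with it the values were 2.27, 9.74 and 2.27. The RANBP2 segment at chr2:109794473-109794503, at 95.7% of the span, lay in another gene as well and had 8, 8 and 7 reads. In replicate 1 its peak had 8 reads over 0.351 background reads and a fold of 4.29. The strongest peak of RGPD5, a relative of RANBP2, has the same values in that list. The segment therefore cannot be given to RANBP2 alone.

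NUP88, a filament scaffold protein, held 6, 12 and 3 peaks. Its peaks of highest fold had 23, 18 and 15 reads over 1.521, 4 and 0.351 background reads, with folds of 5.87, 4.12 and 3.56. Those of replicates 1 and 3 lay at 0.063 and 0.133 kb from the 5′ end and that of replicate 2 at 32.89 kb, where replicate 3 also had a peak, with 12 reads and a fold of 3.06. No segment of at least 20 bp in NUP88 was covered by all 3 lists. NUP214, which docks the export helicase, held 8, 19 and 5 peaks with at most 11, 7 and 8 reads. GLE1, the activator of that helicase, held 3, 6 and 4 with at most 12 reads in each list. RAE1 held 2, 5 and 3, and its segment at chr20:57378107-57378146, at 96.1% of the span and also in another gene, had 16, 14 and 15 reads over 2.07, 7 and 0.312. AAAS (ALADIN), mutated in triple A syndrome, held 2, 2 and 3 with at most 7, 6 and 9 reads. Reads of 10 or more in all 3 lists were thus found for NUP88, GLE1, RAE1 and RANBP2 on this side of the pore, and not for NUP214, AAAS or NUP42.

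The nuclear basket is built by TPR, with NUP153 and NUP50, and the 3 genes held 7, 22 and 17 peaks, or 3.9, 12.3 and 9.47 per 100 kb. NUP50, which helps release imported cargo, held 3, 4 and 4. Its segment at chr22:45164068-45164116, 0.167 kb from the 5′ end, had 14, 11 and 14 reads over 2, 6 and 0.39 background reads, and the summits lay within 13 bp. TPR, the basket scaffold, held 2, 15 and 11 peaks, and its highest read number was 8, 17 and 18. NUP153, which anchors the basket, held 2, 3 and 2 with at most 11, 4 and 9 reads.

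The membrane nucleoporins anchor the pore in the envelope, and their 3 genes held 7, 48 and 5 peaks. Of the 48 in replicate 2, 30 rested on 1 read, and the group had 1, 0 and 0 peaks of at least 10 reads. NUP210 held 1, 27 and 2 peaks with at most 4, 5 and 5 reads, NDC1 2, 3 and 1 with at most 3, 7 and 7, and POM121 4, 18 and 2 with at most 12, 7 and 5. No segment in these genes was covered by all 3 lists. NDC1 reached a −log10 q above 3 in replicate 2 with 5 reads over 0.144 background reads. Median reads in this group were 4, 1 and 5, against 14, 13 and 13 in the outer ring and 16, 13 and 12 in the inner ring. These are reads per site and were not divided by gene expression.

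**Figure D4:**
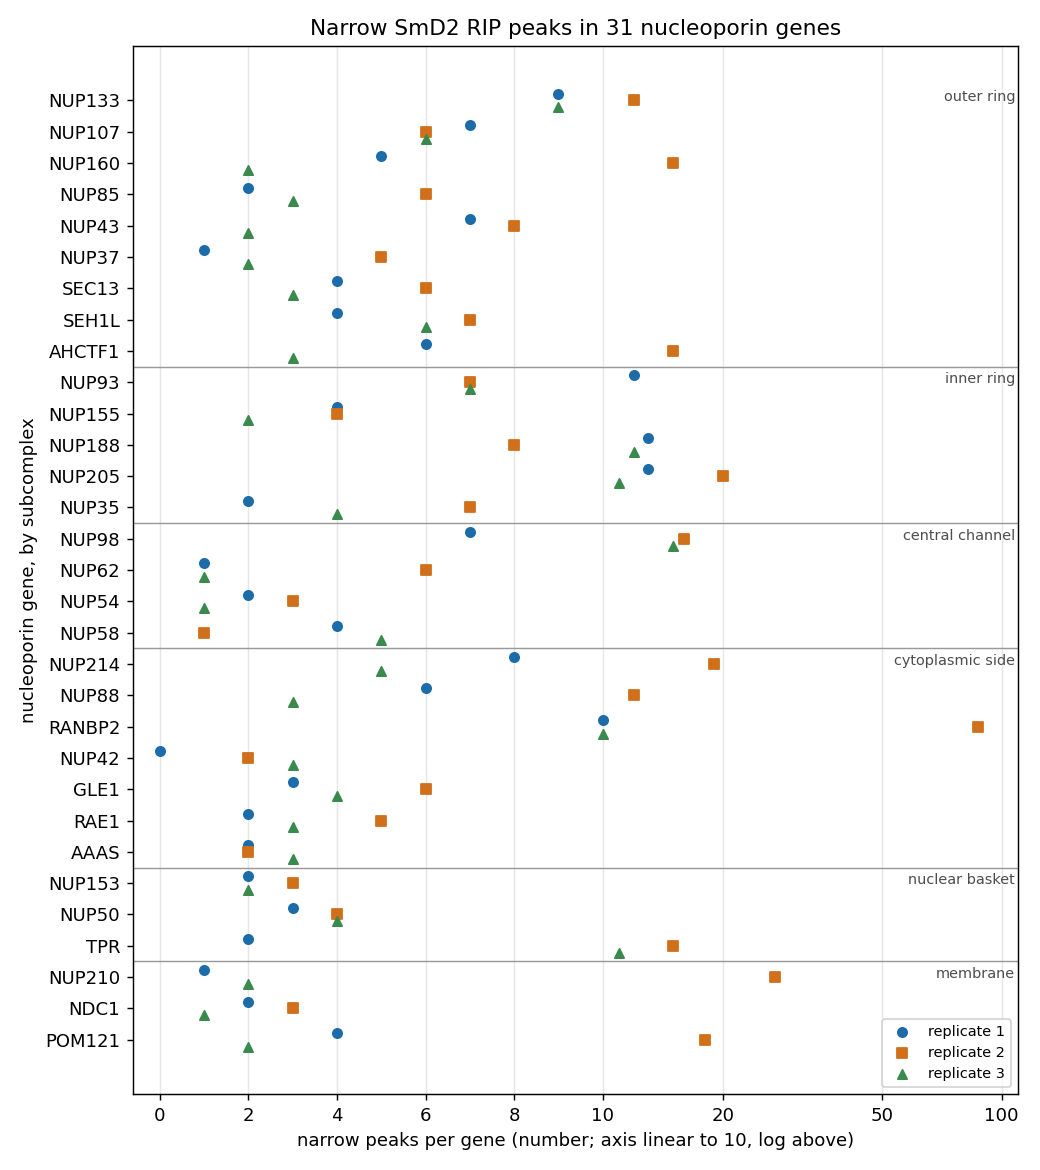
Number of narrow peaks (horizontal axis, linear to 10 and logarithmic above) in each of the 31 nucleoporin genes (vertical axis, grouped by subcomplex), with 1 marker for each replicate. RANBP2 has the most, with 87 in replicate 2, and NUP42 alone has 0 in a replicate.

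Peak numbers per gene kept part of their order between replicates. Over the 31 genes, Spearman's rho was 0.54 between replicates 1 and 2, 0.61 between 1 and 3 and 0.38 between 2 and 3. The genes share their spans between lists, and rho between peak number and span was 0.48, 0.59 and 0.29. These are descriptions across genes, which are not independent replicates.

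At the level of positions the replicates agreed for a minority of peaks. Of the nucleoporin peaks of replicate 1, 33.8% overlapped a narrow peak of replicate 2 by at least 1 bp and 26.4% one of replicate 3. Of those of replicate 2, 14.1% and 13.8% overlapped replicates 1 and 3. Of those of replicate 3, 26.5% and 34% overlapped replicates 1 and 2. In protein-coding genes the same 6 shares were 35%, 14.5%, 8.31%, 4.47%, 27.2% and 35.3%. The mean over the ordered pairs was 24.8% for nucleoporin and 20.8% for protein-coding genes. With peaks of any width the order turned, at 28.4% against 32.3%, and with at least 10 reads the values were 34.2% and 32.9%. For narrow peaks, the nucleoporin shares were higher for the 3 pairs from replicate 1 to 3 and from replicate 2 to the others, and slightly lower for the other 3.

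Segments of at least 20 bp covered by narrow peaks of all 3 lists numbered 15, in 12 of 31 genes, against 5.97% of protein-coding genes. The whole series held 1796. Replicates 1 and 2 shared 44 segments in 21 genes, replicates 1 and 3 shared 36 in 18, and replicates 2 and 3 shared 47 in 22. The 15 segments were 31 to 86 bp long, and in 9 of them the 3 summits lay within 50 bp. In 11 every list had at least 10 reads. The −log10 q was above 0 in all 3 lists at 1 segment, the NUP133 site at 1.6 kb, and was 0 in all 3 lists at 6 of them. Of the 13 segments in genes with a known strand, 3 lay in the first 10% and 3 in the last 10% of the gene. Of the 15 segments, 2 lay in another gene as well. These were the segments of RANBP2 and RAE1, both in the last 10%.

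Over all summits, positions along the gene lay near those of other genes, and differed more for peaks of at least 10 reads or without RANBP2. The position runs from 0 at the 5′ end to 100 at the 3′ end, and was set for the 28 genes with a strand in the table. The median was 58.4, 56.3 and 64.7 in replicates 1, 2 and 3, a mean of 59.8 ± 4.37 (SD, n = 3), against 58.6 ± 3.16 (SD, n = 3) in protein-coding genes. The first 10% of the gene held 13.2% ± 1.64 of summits against 15.1% ± 3.11, and the last 10% held 15.9% ± 2.6 against 18% ± 0.954 (SD, n = 3 each). For peaks of at least 10 reads the median position was 61.5 ± 4.54 against 53.4 ± 4.5, and the first 10% of the gene held 15.7% ± 1.65 against 21.3% ± 3.11. Over all summits each difference was smaller than the larger SD of the 2 sets, and for peaks of at least 10 reads it was larger than both SDs. These values include RANBP2, whose span holds other genes. Without it the median over all summits was 61.9 ± 1.91 and the first 10% held 11.5% ± 0.2 (SD, n = 3), and both then differed from protein-coding genes by more than the larger SD. The SDs are over 3 lists of the same genes and do not measure the spread between genes.

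Other genes of nuclear transport were counted in the same way. Of 27 importins, exportins and adaptors, which carry cargo through the pore, 24 (88.9%) had a narrow peak in all 3 lists and 13 had a segment covered by all 3. XPO5, the exporter of precursor miRNA, had 5 such segments, and IPO9, TNPO3 and KPNB1 had 3 each. Of 6 genes of the Ran cycle, which gives transport its direction, 4 had a peak in all 3 lists, while RAN itself had none in any. Of 14 mRNA export genes 9 did (64.3%). Of the 47 together, 37 (78.7%) had a peak in all 3 lists, 18 had a shared segment and 26 had at least 10 reads in each list. Among all protein-coding genes the shares were 23.9%, 5.97% and 7.38%. A share of genes with peaks above that of all protein-coding genes was thus also seen in the soluble transport machinery, without classes of span. The difference from the nucleoporin genes was not tested. Of 10 copies of nucleoporin genes, such as the RGPD relatives of RANBP2, 4 had a peak in all 3 lists and 0 had one of at least 10 reads in each. Reads that fit several copies cannot be assigned from peak lists.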

How the data were processed

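The data are RIP-seq peak lists of the 3 HEK293T samples whose genotype label is SNRPD2OE. The submitters' processing notes name MACS2 2.2.9.1, STAR 2.7.10b, cutadapt 4.2 and build GRCh38. Not given in the sources used here are the caller's options, its background library, how duplicates were handled, and strand. Per the column layout of the deposited files, each peak has a start, an end and a summit offset, a score (10 times −log10 p), a fold, a −log10 p-value and a −log10 q-value. The deposited fold is the authors' own and was used only within its list.

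The members and lists were chosen with earlier results of these data known. Named genes were all 31 members by subcomplex, NUP133 in full, and the 5 genes nearest to it. RIP reads were recovered as the whole number that gives the deposited fold and p within 0.002 on the −log10 scale. The height of 1 read was 0.5995, 1 and 0.2537 in replicates 1, 2 and 3, and 1 peak of replicate 3 was unsolved. Background values fell on whole multiples of 1, 0.9029 and 1 in 29%, 22.6% and 32.8% of distinct values of a middle range, with the lowest and highest backgrounds left out. Values that were not whole multiples were read as averages over wider windows. Tested on simulated data, recovery was right for 99.9%, 100% and 99.7% of 1631, 1643 and 1377 simulated peaks. The simulation used the same formula and fitted heights, so it checks the solving step and not the model. Library totals are unknown, so the reads at a peak set its precision, and they cover counting only. Genes came from the RefSeq table as whole spans. Shared segments needed 20 bp and overlap 1 bp. Python 3.11.15, numpy 2.4.6, pandas 2.3.3, scipy 1.17.1 and matplotlib 3.10.9 were used. Alternatives changed the width limit, the q, read and overlap minimums, list length, gene overlap and the replicates included.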

Additional observations from a re-analysis of the deposited data

How the results depend on the processing

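No paired analysis was possible because lists of 1 group only were used. Of 39 alternative values, 24 stayed near the main value, that is within 1.5 times for counts and within 1 SD over replicates for shares and positions. The 30 genes with a peak in all 3 lists became 1 at a −log10 q of at least 3, 17 with at least 10 reads and 19 with lists of equal length, where 0.0649%, 7.38% and 13.6% of protein-coding genes had such peaks. The 1 gene at the q limit was NUP133, by which the list was chosen, and it is also in the mean share at that limit. The mean share of 98.9% became 11.8%, 68.8% and 84.9% under these 3 alternatives, against 2.63%, 14.4% and 33.1% in protein-coding genes, and 95.7% with summits in no other gene, against 45.3%. The mean overlap of 24.8% became 13.1% with a reciprocal overlap of 50% and 34.2% with at least 10 reads, against 10.6% and 32.9%. The 15 shared segments became 7 when 50 bp were required and 1 under the −log10 q limit of 3. Leaving out 1 replicate, so that 2 lists had to share a segment, gave 36 to 47 segments, with 47 without replicate 1, 36 without replicate 2 and 44 without replicate 3. The same omission gave 30 to 31 genes, shares of 98.4% to 100%, overlaps of 23.9% to 26.4% and positions of 57.4 to 61.6. The median position of 59.8 became 54.8 with each gene counted once. Without RANBP2, an alternative chosen after seeing the data, 14 segments and a position of 61.9 were found. Library totals are unknown, and 71.4% of the narrow peaks of replicate 2 and 5.47% of those of replicate 3 rested on 1 read.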
